A study of Homo sapiens with 6 samples.

Results

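Genes of the long arm of chromosome 21 were examined after silencing of interleukin-1β (IL-1β) in Cal27, a cell line established from a squamous carcinoma of the human tongue. The list held 60 named genes of this arm in their order along it, from HSPA13 to PRMT2. Of these, 59 were measured, and AGPAT3 had no probe set (the short probes that together report 1 transcript) naming it alone in the annotation used. The genes were chosen by their place on the arm after the log2 fold changes of this same comparison were known, so those fold changes are given as a description and no test of the list is made. The comparison set LV-shIL-1β cells, which carried a lentiviral short hairpin RNA against IL1B, against LV-shNC cells, which carried a scrambled hairpin, with 3 Affymetrix Human Genome U133 Plus 2.0 arrays in each group. Both groups had been transduced, selected with puromycin at 2 μg/mL for 2 weeks and grown without further treatment. Each group rests on 1 hairpin sequence, and whether its arrays came from separate cultures or transductions is not given in the labels or methods, so the hairpin and any other difference between the selected cell populations cannot be told apart. The p-values therefore reflect array-to-array spread alone, and that spread may be technical.

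Chromosome 21 is the smallest human autosome, and nearly all of its protein-coding genes lie on the long arm. An extra copy of the chromosome causes Down syndrome, in which many of its genes are expressed at a moderately raised level, and gains and losses of whole arms are common in squamous carcinoma. The genes of the arm have no common pathway and include the superoxide dismutase SOD1, the amyloid precursor APP, the kinase DYRK1A and the transcription factors ETS2, BACH1 and GABPA. The arrays measured RNA alone, and no DNA copy number was measured here, so gene dosage itself has no value in these data.

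The signal of IL1B was 1569, 1569 and 1596 in LV-shIL-1β, against 2677, 2611 and 2494 in LV-shNC, so that the log2 fold change was -0.72 with an SE of 0.04 (adjusted p = 2.45e-05 by limma). The target of the hairpin decreased by 39.1% on average and was lower on all 3 LV-shIL-1β arrays. Median signals of the arrays lay between 18.4 and 18.9, and the lowest correlation within groups (0.995) exceeded the highest between groups (0.994). Of 9 epithelial markers 6 had a value, the brightest being KRT14, a basal keratin, at 5613 ± 149 in LV-shIL-1β and 7175 ± 151 in LV-shNC (SD, n = 3). The summed signal of these markers ran from 15030 to 16372 in LV-shIL-1β and from 17449 to 18722 in LV-shNC, and KRT14 and KRT5 fell (limma, adjusted p = 0.000261 and 0.00152). The other 4, CDH1 (0.04 ± 0.04, SE of the log2 fold change), EPCAM (0.06 ± 0.07), DSG3 (-0.10 ± 0.09) and DSP (-0.13 ± 0.08), were not called. Among 5 leukocyte markers the defining PTPRC averaged 2.64 in LV-shIL-1β and 2.68 in LV-shNC, and the summed signal ran from 89.0 to 96.5 in LV-shIL-1β and from 74.4 to 77.3 in LV-shNC, with CD14 higher (limma, adjusted p = 0.00453). The 6 fibroblast markers summed to between 118 and 132 in LV-shIL-1β and between 150 and 173 in LV-shNC. LUM (-1.14 ± 0.18) and COL1A2 (-0.53 ± 0.10) were dim, at means of 12.4 and 16.1 in LV-shIL-1β and 27.5 and 23.2 in LV-shNC. Both passed the filter signal of 18.6, the median of all values, through the LV-shNC arrays alone. Their direction is therefore tied to the filter, and nothing is read from it. The 4 endothelial markers summed to between 60.5 and 62.1 in LV-shIL-1β and between 62.0 and 65.4 in LV-shNC. The part of these shifts in the values of chromosome 21 genes was not tested.

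To show the sequence context, promoter windows reaching from 250 bases before to 50 bases after a gene's start were taken from RefSeq (build GRCh38.p14), and 48 of the 60 genes had at least 1 window. The first is that of SON, a splicing cofactor, shown because its window overlaps that of GART, an enzyme of purine synthesis that lies on the opposite strand. It is the only such pair in which both genes belong to the list. The window lies at chr21:33542788-33543087 on the plus strand, and capitals mark the 248 bases shared with the GART window.

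SON: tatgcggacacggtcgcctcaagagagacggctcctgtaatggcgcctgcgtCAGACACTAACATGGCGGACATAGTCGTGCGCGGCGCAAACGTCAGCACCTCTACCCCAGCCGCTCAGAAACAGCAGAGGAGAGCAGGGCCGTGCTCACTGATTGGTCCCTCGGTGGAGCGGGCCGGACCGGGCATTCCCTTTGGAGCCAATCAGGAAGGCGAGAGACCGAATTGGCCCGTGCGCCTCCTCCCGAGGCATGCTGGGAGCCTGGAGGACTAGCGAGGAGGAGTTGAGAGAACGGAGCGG

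The next window is that of GABPA, the DNA-binding subunit of GA-binding protein, whose window overlaps by 167 bases that of ATP5PF, a subunit of ATP synthase. It lies at chr21:25734722-25735021 on the plus strand, and capitals mark the ETS-family core CCGGAAG, here read on the opposite strand.

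GABPA: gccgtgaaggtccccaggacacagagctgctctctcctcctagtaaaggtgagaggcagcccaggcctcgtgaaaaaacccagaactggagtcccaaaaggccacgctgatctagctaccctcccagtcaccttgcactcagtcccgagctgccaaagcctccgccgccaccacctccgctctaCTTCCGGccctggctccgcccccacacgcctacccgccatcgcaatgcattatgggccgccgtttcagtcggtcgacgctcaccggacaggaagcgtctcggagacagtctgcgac

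The last is that of CBR1, a carbonyl reductase with the second lowest fold change of the list, at chr21:36069774-36070073 on the plus strand, with both GC boxes (GGGCGG on either strand) in capitals.

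CBR1: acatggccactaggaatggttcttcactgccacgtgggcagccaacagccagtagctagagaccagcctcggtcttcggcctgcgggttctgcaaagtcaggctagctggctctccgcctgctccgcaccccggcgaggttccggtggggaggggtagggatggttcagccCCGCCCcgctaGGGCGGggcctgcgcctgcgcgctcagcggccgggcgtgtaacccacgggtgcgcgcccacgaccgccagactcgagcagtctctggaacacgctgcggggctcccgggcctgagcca

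On either strand, CCGGAAG was present in 18.4% of the 76 windows of the list and in 10.3% of all 35116 windows. GGGCGG was present in 63.2% of the windows of the list and 45% of all windows, and TATAAA in 10.5% of those of the list and 11.5% of all. Some genes have several windows, and a match of letters is not evidence of binding. In the SON and GART pair both genes were lower in LV-shIL-1β, with log2 fold changes of -0.44 ± 0.07 and -0.30 ± 0.05 (SE). In the GABPA and ATP5PF pair the values were -0.03 ± 0.14 and -0.27 ± 0.06, although a second probe set of GABPA read -0.62 ± 0.10.

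Lower signal in LV-shIL-1β was found for nearly all measured genes of the list. Of the 59 measured genes, 58 had a log2 fold change below 0 (LV-shIL-1β minus LV-shNC), and NRIP1 alone lay above it at 0.08 ± 0.07 (SE). The median was -0.27, or a change of -17.3%, against a median of 0.00 over one probe set for each of the 12313 genes tested. The quartiles were -0.37 and -0.19 for the list, against -0.09 and 0.09 for all genes. Changes were moderate, as 22 of the 59 genes lay between -0.3 and -0.2 and only TMEM50B and CBR1 were more than 1.5-fold lower, a size reached by 0.365% of all genes. All 59 genes lay above the filter signal of 18.6 on all 6 arrays, so none was kept through 1 group alone. In a culture measured in bulk, a lower level in every cell and a lower level in some of the cells cannot be told apart.

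A gene is called here when its Benjamini-Hochberg adjusted p was under 0.05 in limma, fitted to all 27546 kept probe sets. By this rule 36 of the 59 genes were called lower and 0 higher, where 4.5% of all genes were called lower and 4.03% higher. With the methods' t-test after Benjamini-Hochberg adjustment 9 were called lower, against 0.91% of all genes. With the replicate number as a block in limma 18 were, against 1.62% of all genes. Without probe sets of the _x_at and _s_at types, which can bind several transcripts, 20 of 41 were, against 4.36% of all genes. For 52 of the 59 genes even the highest LV-shIL-1β value was under the lowest LV-shNC value, and this held for 15.7% of all genes. The opposite order was found for 0 of the 59 and for 15.9% of all genes. The 7 genes whose groups overlapped were HSPA13, NRIP1, GABPA, MORC3, HLCS, ZBTB21 and WDR4. Because the list was chosen with this comparison known, these counts describe its members and nothing further is read from them. The counts by position and by role given below are parts of the same 36 and 52. They stand beside the same shares of all genes, 4.5% called lower and 15.7% not overlapping. The role groups only order the genes and were not compared with each other.

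**Figure D1:**
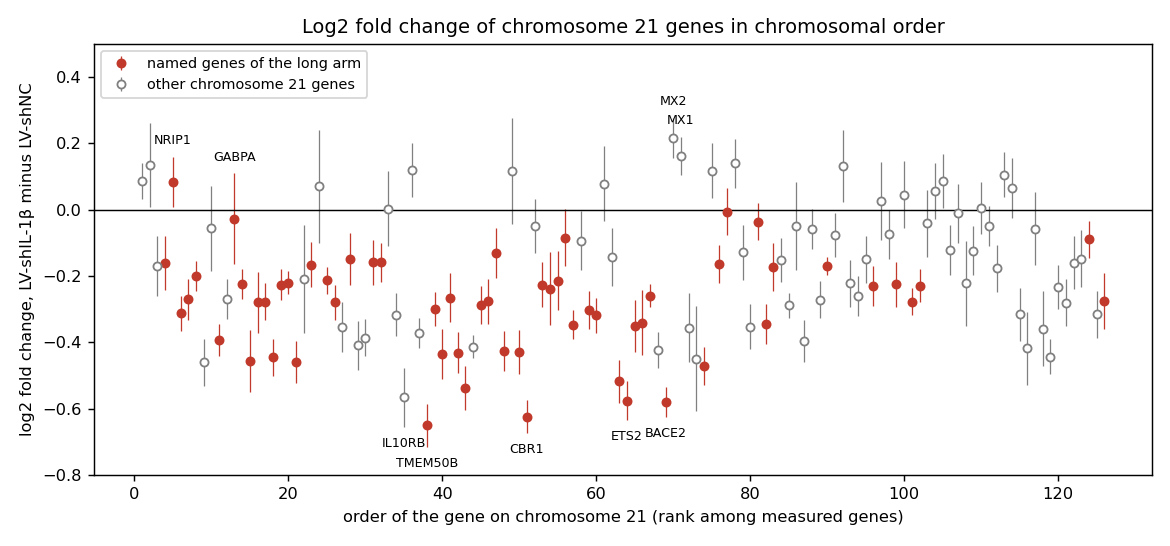
Log2 fold change (vertical axis, LV-shIL-1β minus LV-shNC, bars are SE) of the 126 chromosome 21 genes tested, placed by their rank along the chromosome (horizontal axis), with the 59 measured genes of the list in filled red and the 67 others in open grey. Of the red points 58 lie below 0, among them the first and the last of the list along the arm. Those genes, HSPA13 and PRMT2, were not called.

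Each array showed the same shift. The median over the 59 genes, as log2 signal minus the LV-shNC mean of the gene, was -0.30, -0.25 and -0.28 on the LV-shIL-1β arrays, against 0.01, -0.02 and 0.01 on the LV-shNC arrays. Over all genes tested these medians were -0.02, 0.02 and 0.01 in LV-shIL-1β and 0.00, -0.01 and 0.01 in LV-shNC. On the single LV-shIL-1β arrays, 53, 55 and 55 of the 59 genes lay below all 3 LV-shNC arrays. Each of these counts includes the 52 genes whose groups did not overlap, and the share over all genes was not computed for single arrays. The spread among genes was wide beside these medians, with single genes on LV-shIL-1β array 1 above the LV-shNC mean, among them GABPA.

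**Figure D2:**
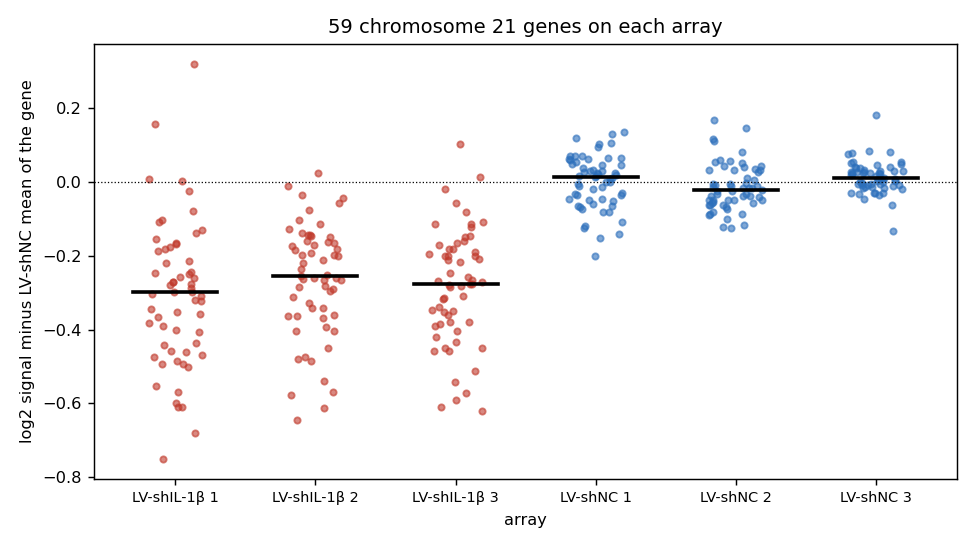
Each point is 1 of the 59 genes on 1 array (horizontal axis), as log2 signal minus the LV-shNC mean of that gene (vertical axis), with LV-shIL-1β in red, LV-shNC in blue and the median as a black line. The medians are -0.30, -0.25 and -0.28 for LV-shIL-1β and 0.01, -0.02 and 0.01 for LV-shNC.

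By position the shift was present in each part of the list. The 20 genes nearest the centromere, HSPA13 to SYNJ1, had a median log2 fold change of -0.23 with 13 called lower. The middle 20, PAXBP1 to DYRK1A, included both TMEM50B and CBR1 and had a median of -0.30 with 13 called lower. The last 20, of which 19 were measured, had a median of -0.26 with 10 called lower. Over all genes 4.5% were called lower. The range was -0.46 to 0.08 in the first, -0.65 to -0.08 in the middle and -0.58 to -0.01 in the last. These ranges overlapped in part. TMEM50B, CBR1 and ITSN1 of the middle stretch lay below every gene of the first, as did BACE2, ETS2, KCNJ15 and RIPK4 of the last. The difference between the stretches was not tested, and the median of the last stretch was -0.20 without LV-shIL-1β array 1.

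The lowest fold change was that of TMEM50B, a membrane protein of the secretory pathway. Its signal was 154, 169 and 172 in LV-shIL-1β, against 272, 249 and 256 in LV-shNC, a log2 fold change of -0.65 ± 0.06 (SE). The groups were far apart, and 3 further kept probe sets of TMEM50B read -0.54, -0.38 and -0.46. CBR1, which reduces carbonyl compounds and quinones, gave 364, 355 and 361 in LV-shIL-1β, against 582, 540 and 543 in LV-shNC (-0.62 ± 0.05). Its close neighbour and paralogue CBR3 gave 85.2, 94.1 and 87.7 in LV-shIL-1β, against 108, 98.9 and 106 in LV-shNC (-0.23 ± 0.07). Both reductases were lower on every LV-shIL-1β array, and the fold change of CBR1 was the larger.

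BACE2, an aspartic protease that cleaves APP within the amyloid sequence, gave 462, 471 and 470 in LV-shIL-1β, against 725, 675 and 696 in LV-shNC (-0.58 ± 0.05, SE). A second probe set read -0.56 ± 0.06, while a dim one with a mean signal of 20.4 read 0.13 ± 0.12. APP itself, the amyloid precursor, gave 1810, 1679 and 1767 in LV-shIL-1β, against 1979, 2164 and 1996 in LV-shNC (-0.22 ± 0.05). APP was not called without LV-shIL-1β array 2 (-0.19) or 3 (-0.23), or without LV-shNC array 2 (-0.18). The secreted metalloprotease ADAMTS1 stood at -0.46 ± 0.09, and all 3 genes of this group of proteases and APP were called lower by their brightest probe set.

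Of the transcription and chromatin genes, 3 of 10 were called lower and 9 of 10 lay below 0. ETS2, an ETS transcription factor, gave 261, 288 and 293 in LV-shIL-1β, against 418, 407 and 430 in LV-shNC (-0.58 ± 0.06, SE). Its second bright probe set read -0.24 ± 0.08 and was not called. BACH1, a haem-sensing repressor of antioxidant genes, gave 90.1, 87.5 and 89.7 in LV-shIL-1β, against 116, 127 and 125 in LV-shNC (-0.46 ± 0.06). On the brightest probe set, ETS2 and BACH1 showed a clear gap between groups. HMGN1, a nucleosome-binding protein, was among the brightest of the list, with 2699, 2791 and 2609 in LV-shIL-1β, against 3152, 3306 and 3234 in LV-shNC (-0.26 ± 0.04).

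By the brightest probe set, the same group held 3 of the 4 genes with the highest fold changes. NRIP1, a corepressor of nuclear receptors, gave 155, 138 and 149 in LV-shIL-1β, against 127, 143 and 147 in LV-shNC, and its second probe set read 0.05 ± 0.10 (SE). ZBTB21, a zinc finger protein, gave 98.1, 101 and 98.5 in LV-shIL-1β, against 108, 93.9 and 97.6 in LV-shNC (-0.01 ± 0.07). GABPA gave 86.6, 59.6 and 61.1 in LV-shIL-1β, against 62.9, 75.2 and 70.6 in LV-shNC, with the first LV-shIL-1β array above all others. Its second probe set, of nearly equal brightness, read -0.62 ± 0.10 and was called lower, and the mean over its probe sets was -0.32 and was called as well. On the brightest probe set the groups overlapped in all 3 genes, and the sign changed for ZBTB21 under median centring (0.0089) or without LV-shNC array 1 (0.0532), and for GABPA without LV-shIL-1β array 2 (0.069) or 3 (0.0508) or LV-shNC array 2 (0.0313). The chromatin assembly subunit CHAF1B (-0.21 ± 0.09), the bromodomain protein BRWD1 (-0.34 ± 0.10), MORC3 (-0.24 ± 0.11) and the homeodomain factor PKNOX1 (-0.17 ± 0.07) were not called.

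Among methyltransferases 1 of 4 was called lower, SETD4 (-0.43 ± 0.07, SE). WDR4, which pairs with METTL1 to methylate transfer RNA, gave 234, 240 and 250 in LV-shIL-1β, against 254, 238 and 250 in LV-shNC (-0.04 ± 0.05), with overlapping groups. HEMK2, which methylates translation release factors, stood at -0.28 ± 0.09 and the arginine methyltransferase PRMT2 at -0.27 ± 0.08.

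Of the proteostasis genes, 7 of 9 were called lower, and all 9 had log2 fold changes between -0.35 and -0.16. CCT8, a subunit of the TRiC chaperonin that folds actin and tubulin, gave 2237, 2306 and 2279 in LV-shIL-1β, against 2559, 2727 and 2667 in LV-shNC (-0.22 ± 0.04, SE). The proteasome assembly chaperone PSMG1 (-0.35 ± 0.08), the deubiquitinases USP25 (-0.31 ± 0.05) and USP16 (-0.23 ± 0.05), the ribosome quality control ligase LTN1 (-0.28 ± 0.06), the modifier SUMO3 (-0.28 ± 0.04) and the cathepsin inhibitor CSTB (-0.17 ± 0.03) were called. CSTB was the brightest gene of the list, with a mean of 3235 in LV-shIL-1β and 3639 in LV-shNC. UBE2G2, a ubiquitin-conjugating enzyme of the endoplasmic reticulum pathway (-0.22 ± 0.07), and the HSP70 relative HSPA13 (-0.16 ± 0.08) were not called.

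Metabolic and redox enzymes held 6 called genes of 9 measured. SOD1, the cytosolic copper and zinc superoxide dismutase, gave 2611, 2833 and 2575 in LV-shIL-1β, against 3096, 3045 and 3145 in LV-shNC (-0.21 ± 0.04, SE). The groups did not overlap, with the second LV-shIL-1β array nearest the LV-shNC arrays. SOD1 was not called without LV-shIL-1β array 3 (-0.19) or LV-shNC array 3 (-0.20), or with the replicate number as a block. GART (-0.30 ± 0.05), the quinone oxidoreductase-like CRYZL1 (-0.43 ± 0.06), PIGP, which acts in glycosylphosphatidylinositol anchor synthesis (-0.35 ± 0.04), and the complex I subunit NDUFV3 (-0.34 ± 0.06) were called besides CBR1. The phosphofructokinase PFKL (-0.23 ± 0.06), CBR3 and the biotin ligase HLCS (-0.08 ± 0.09) were not. The mitochondrial ribosomal proteins MRPL39 (-0.39 ± 0.05) and MRPS6 (-0.29 ± 0.06) were both called lower.

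Of 4 kinase, calcineurin and Rac regulators, 3 were called lower. DYRK1A, a kinase with many nuclear substrates, gave 253, 256 and 264 in LV-shIL-1β, against 335, 319 and 311 in LV-shNC (-0.32 ± 0.05, SE). Its call was lost with the replicate number as a block. RCAN1, an inhibitor of calcineurin, gave 147, 140 and 147 in LV-shIL-1β, against 198, 184 and 202 in LV-shNC (-0.43 ± 0.06). RIPK4, a kinase needed for keratinocyte differentiation, gave 442, 464 and 498 in LV-shIL-1β, against 678, 620 and 647 in LV-shNC (-0.47 ± 0.06). In none of these did the groups overlap, and the Rac exchange factor TIAM1 stood at -0.17 ± 0.07.

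All 10 membrane, endocytosis and transport genes lay below 0 with no overlap between groups, and 7 were called. Over all genes 15.7% did not overlap in this direction and 4.5% were called lower. The endocytic scaffold ITSN1 gave 131, 134 and 148 in LV-shIL-1β, against 204, 191 and 205 in LV-shNC (-0.54 ± 0.07, SE), and a second kept probe set read -0.55 ± 0.06. The potassium channel KCNJ15 gave 125, 129 and 116 in LV-shIL-1β, against 169, 181 and 180 in LV-shNC (-0.52 ± 0.07). Other kept probe sets of KCNJ15 read -0.36 ± 0.07 and, on a dim one, -0.02 ± 0.09, which was not called. On the brightest probe set ITSN1 and KCNJ15 were well separated. The adhesion receptor CXADR (-0.27 ± 0.06), the inositol transporter SLC5A3 (-0.28 ± 0.07), VPS26C, a subunit of the retriever complex (-0.30 ± 0.06), and PTTG1IP (-0.23 ± 0.05) were also called. SLC5A3 and MRPS6 start at the same base in the RefSeq table, so their probe sets may not be independent. The phosphatase SYNJ1 (-0.16 ± 0.07), C2CD2 (-0.16 ± 0.06) and SMIM11 (-0.13 ± 0.08) were not called.

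RNA processing and ribosome biogenesis genes were all below 0, with SON and the RNA polymerase II-binding SCAF4 (-0.28 ± 0.05, SE) called, and URB1 (-0.15 ± 0.08) and PAXBP1 (-0.16 ± 0.06) not. SON had 5 kept probe sets, all called, between -0.44 and -0.31. Of the cell division genes, the antiproliferative BTG3 (-0.20 ± 0.04) was called, while DONSON, which acts at replication forks (-0.27 ± 0.07), and the centrosomal PCNT (-0.09 ± 0.06) were not. RWDD2B stood at -0.45 ± 0.06 and was called.

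**Figure D3:**
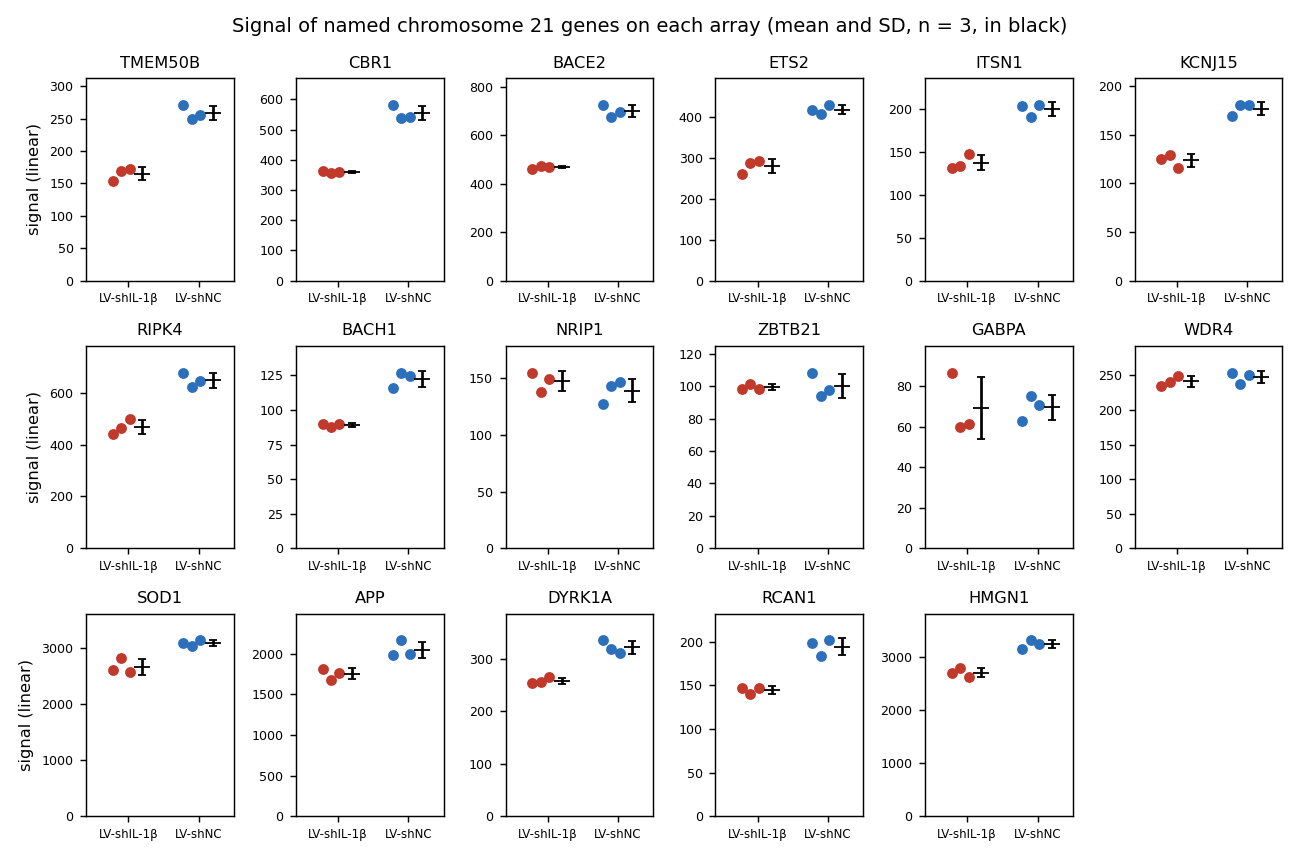
Signal on a linear scale (vertical axis) of 17 genes of the list on each array, with LV-shIL-1β in red at left, LV-shNC in blue at right, and the mean with its SD in black (n = 3). The groups are apart in all but NRIP1, ZBTB21, GABPA and WDR4.

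Further probe sets of the same genes were read beside the brightest ones and, coming from the same arrays and genes, are given as a description. Besides the 59 used, 77 other kept probe sets belonged to 42 of the genes, and 73 of them lay below 0. Their median log2 fold change was -0.26, and 31 were called lower and 0 higher, where 3.37% of all kept probe sets were called lower and 3.68% higher. The 4 above 0 belonged to NRIP1, PAXBP1, BRWD1 and BACE2. The 41 probe sets that were too dim to be kept had a median of -0.08, with 32 below 0. Among the genes themselves, the 46 with a mean signal of 100 or more had a median of -0.28 and the 13 dimmer ones a median of -0.17.

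Chromosome 21 genes outside the list were examined in the same way. Of 67 such genes tested, 48 lay below 0, 19 were called lower and 0 higher, and their median log2 fold change was -0.14. Most were dim. The 24 with a mean signal of 100 or more had a median of -0.28 with 15 called lower, and the 43 dimmer ones had a median of -0.07 with 4 called lower. By comparison, 4.5% of all genes were called lower and 4.03% higher, and these shares were not computed by signal. Whether signal accounts for the median of -0.14 was not tested. Bright examples included the ATP synthase subunit ATP5PO, with 2077, 2222 and 2152 in LV-shIL-1β, against 2857, 2880 and 2853 in LV-shNC (-0.41 ± 0.03, SE). The splicing factor U2AF1 gave 1788, 1798 and 1898 in LV-shIL-1β, against 2289, 2173 and 2233 in LV-shNC (-0.29 ± 0.04), and the sterol synthesis enzyme LSS gave 381, 403 and 416 in LV-shIL-1β, against 550, 522 and 558 in LV-shNC (-0.44 ± 0.05). These 3 examples were picked after their values were seen. Between PTTG1IP and PCNT, where the list has no gene, unlisted genes lay on both sides of 0. SLC19A1 (0.11) and POFUT2 (0.00) were not called there, while COL6A1 (-0.32) and LSS were called lower. These genes were also picked with their values known.

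Among the 4 cytokine receptor chains encoded on the arm, IL10RB (-0.57 ± 0.09, SE), IFNGR2 (-0.37 ± 0.05) and IFNAR2 (-0.32 ± 0.07) were lower (limma, adjusted p = 0.00573, 0.00186 and 0.0207), and IFNAR1 stood at 0.12 ± 0.08. The 4 bright genes outside the list with values above 0 were the interferon-induced MX2 (0.22 ± 0.06) and MX1 (0.16 ± 0.06), RUNX1-IT1 (0.12 ± 0.16) and LOC105379499 (0.09 ± 0.05), none of them called.

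Fold changes were also summarised by chromosome. Over the 126 chromosome 21 genes tested, members of the list included, the median log2 fold change was -0.22, and 84.1% lay below 0. The medians of the 22 other chromosomes examined, X among them, ran from -0.03 to 0.02, and the share of genes below 0 from 41.9 to 60.7%. On chromosome 21 43.7% of genes were called lower, against 1.71 to 7.69% on the other chromosomes. Because 59 of the 126 genes were listed with these fold changes known, the chromosome 21 values are a description. Without them the 67 remaining genes had the median of -0.14 and the 19 calls given above.

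**Figure D4:**
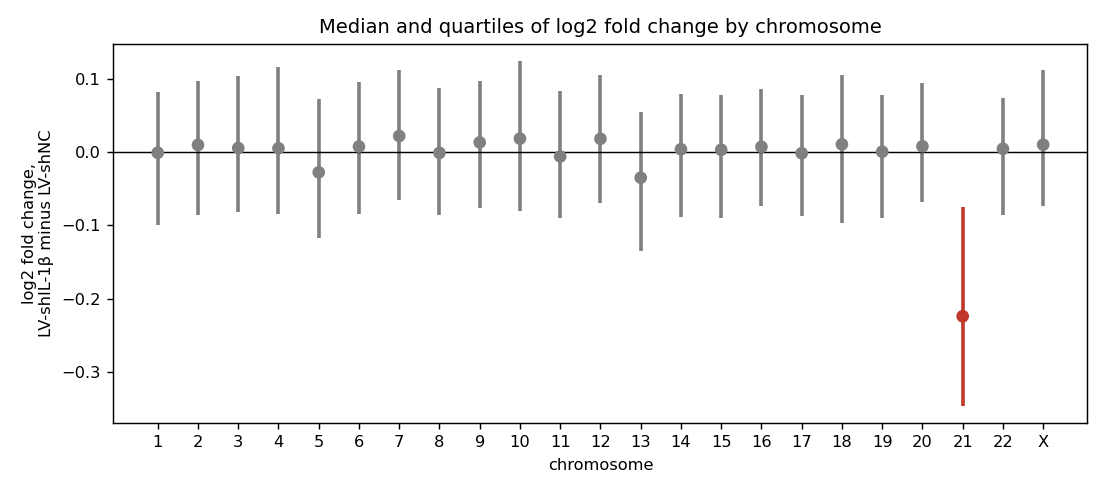
Median (point) and quartiles (line) of the log2 fold change (vertical axis, LV-shIL-1β minus LV-shNC) of the genes of each chromosome (horizontal axis), 1 probe set a gene. Chromosome 21, in red, has a median of -0.22, and the medians of the others, in grey, lie between -0.03 and 0.02.

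To set these genes beside others of like function, paralogues and complex partners encoded on other chromosomes were examined. Of 49 such genes, 41 were kept, with a median log2 fold change of 0.02, 18 below 0 and 23 above. Of the 41, 1 was called lower and 2 higher, where 4.5% of all genes were called lower and 4.03% higher. These counts are near those shares, and nothing is read from them. The chromosome 21 gene had the lower fold change in 35 of the 39 pairs in which both were measured, with a median difference of -0.28 on the log2 scale. The pairs are not separate comparisons, as some genes stand in several of them and CCT8 in 6. The difference was not tested because the fold changes of the list were known when it was chosen.

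In the TRiC chaperonin each ring holds its different subunits in equal number. Against -0.22 ± 0.04 (SE) for CCT8, the 6 other subunits measured, CCT2, CCT3, CCT4, CCT5, CCT6A and CCT7, ran from -0.06 to 0.16 and 0 of them were called (limma, adjusted p between 0.059 and 0.564). The partners of PSMG1 in proteasome assembly, PSMG2 (-0.02 ± 0.04) and PSMG3 (0.07 ± 0.05), and the mitochondrial superoxide dismutase SOD2 (-0.04 ± 0.12) were not called either. The 3 called were GABPB1, the partner subunit of GABPA (0.51 ± 0.07, adjusted p = 0.0035), SYNJ2 (0.29 ± 0.06, adjusted p = 0.0217) and RCAN3 (-0.50 ± 0.07, adjusted p = 0.00251, all limma with Benjamini-Hochberg adjustment). RCAN3 and BRWD3 (-0.44 ± 0.12, not called) thus lay below their chromosome 21 relatives RCAN1 and BRWD1, by 0.07 and 0.10. The BRWD3 difference was smaller than the SE of BRWD3. The other 2 exceptions, TIAM2 beside TIAM1 and CTBP2 beside NRIP1, differed by less than the SE of either gene.

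**Figure D5:**
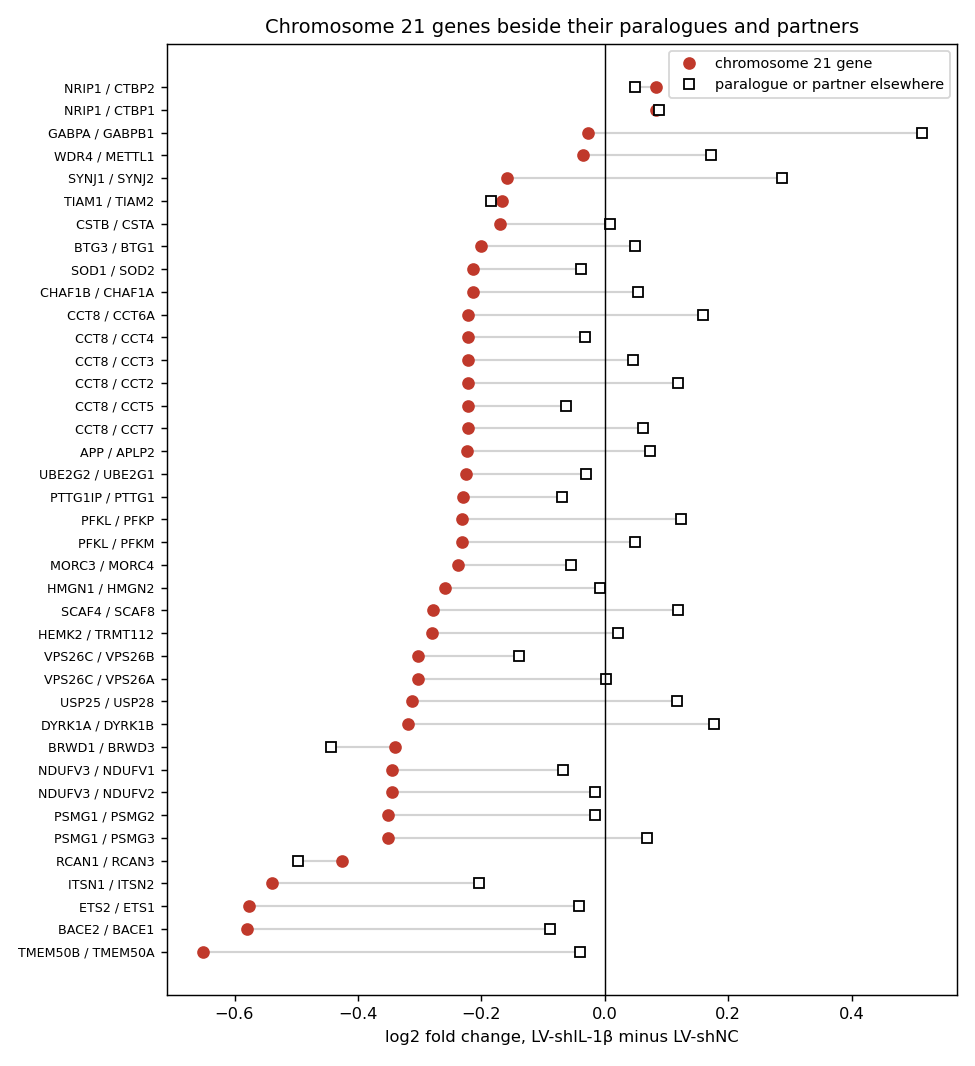
Log2 fold change (horizontal axis, difference of LV-shIL-1β from LV-shNC) of each chromosome 21 gene (red circle) and of a paralogue or complex partner on another chromosome (open square), 1 pair a row. In 35 of the 39 pairs the red circle lies to the left, and the 6 other TRiC subunits lie between -0.06 and 0.16. A chromosome 21 gene with several partners, such as CCT8, is shown in several rows.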

How the data were processed

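Gene expression was measured in Cal27 cells on Affymetrix Human Genome U133 Plus 2.0 arrays, 3 per group, from 6 μg of total RNA per the labels. The authors deposited linear intensity values of 54675 probe sets. MAS5 is the tool named, with no version, in the processing notes of the submitters, and no source used here gives its settings. The signal was put on the log2 scale with no further normalization. After 62 control probe sets were left out, 27546 with at least 3 of 6 arrays above the median of all values (18.6) were kept. The comparison used two-sided moderated tests from limma 3.58.1 (R 4.3.3), its eBayes step allowing the variance to follow the mean, with Benjamini-Hochberg adjustment over kept probe sets and a threshold of 0.05. The model was tested on simulated data. Genes were named from the platform annotation where it listed 1 symbol, and each was represented by its probe set with the highest mean. Chromosomes and gene order came from RefSeq (GRCh38.p14). The RefSeq start order differed from the list for 5 genes. The deposited file names no genome build.

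The genes, role groups and partner list were chosen with earlier results of these data known. Values on every array are given for the 8 lowest and 4 highest fold changes, for SOD1, APP, DYRK1A, RCAN1, ETS2, BACH1, GABPA and HMGN1, and for a few others that a comparison turns on (CBR3, CCT8, ATP5PO, U2AF1 and LSS), which were added after their values were seen. Alternatives covered normalization, pseudocount, filter, choice of probe set, test, the replicate block and each array left out. The number of arrays limits the precision. Any 2 arrays shared at most 1.17% of their values, so none was a copy of another.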

Additional observations from a re-analysis of the deposited data

How the results depend on the processing

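Of 15 alternatives, all left at least 57 of 59 genes of the list below 0 where all 59 were measured (55 of 56 with the stricter filter, 40 of 41 without _x_at or _s_at probe sets), and 0 were called higher in any. The number called lower was 36 and ran from 25 to 34 with each array left out, where 2.18 to 3.74% of all genes were called lower. It was 18 with the replicate number as a block, 20 of 41 without _x_at or _s_at probe sets and 9 with the methods' t-test after Benjamini-Hochberg adjustment, against 4.5% of all genes as reported and 1.62%, 4.36% and 0.91% under these settings. The same-numbered arrays did not deviate together (correlations of -0.39, -0.11 and -0.21). Arrays of different number were not compared, so this check gives no sign of pairing by number but does not settle how the arrays are related. Over all kept probe sets 929 were called lower and 1015 higher, 313 and 255 with the replicate block, 161 and 106 with the methods' t-test, and 844 and 1195 after median centring. With arrays left out the counts ran from 423 to 749 lower and from 271 to 1058 higher. The median of the list (-0.27) ran from -0.28 to -0.25 with arrays left out and was -0.24 without _x_at or _s_at probe sets. The first 20 genes (-0.23) ran from -0.25 to -0.23 with arrays left out and were at -0.21 after median centring. The middle 20 (-0.30) ran from -0.33 to -0.29 and were at -0.32 with the stricter filter, and the last 20 (-0.26) ran from -0.28 to -0.20. The other chromosome 21 genes (-0.14) ran from -0.17 to -0.10, and were at -0.076 with no filter. Signs changed for ZBTB21 (0.0089 after median centring, and between -0.0499 and 0.0532 with arrays left out), for GABPA (0.069 and 0.0508 without LV-shIL-1β array 2 or 3, 0.0313 without LV-shNC array 2) and for BACE2 (0.13 without _x_at or _s_at probe sets, which leaves its dim probe set). Without LV-shIL-1β array 1 or LV-shNC array 1 ZBTB21 was at 0.0026 and 0.0532. With the mean over its probe sets GABPA was called, at -0.32. Calls were lost for SOD1 and APP with the block and without LV-shIL-1β array 3, for SOD1 without LV-shNC array 3, for APP without LV-shIL-1β array 2 or LV-shNC array 2 and with both other probe set rules, and for DYRK1A with the block. The other 215 of 233 values of the named genes kept their side of the threshold and their sign. These values and the lost calls listed leave out the methods' t-test, which was counted over the list alone. With 9 genes called lower under it, further named genes lost their call there. The cause of these changes was not tested.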
